A study of Mus musculus with 6 samples.

Results

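The accessible regions described here are those of intermediate score in ATAC-seq of R1 mouse embryonic stem cells differentiated with retinoic acid. They were chosen from the authors' joint set of accessible regions (mm9) as regions on chromosomes 1 to 19 with a deposited score of at least 20 and below 100 and a width below 3000 bp. This rule gave 33617 of 495233 regions, or 6.79% of the set. R1 is an established mouse embryonic stem cell line. Its cells were kept with LIF, formed into embryoid bodies in hanging drops for 48 h, and cultured with retinoic acid, at a dose the labels give as 0.5 mM, up to sampling at day 6. The 6 samples, 3 of RNA-seq on polyadenylated RNA and 3 of ATAC-seq, all carry this treatment, so the data hold no untreated group and give levels and positions only. ATAC-seq uses the Tn5 transposase to insert adapters into open DNA. The regions came as a single list for all 3 ATAC-seq samples, with no value per sample, so no spread between replicates can be given for any region.

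Accessible regions mark DNA from which nucleosomes have been displaced, mostly promoters, enhancers and insulator sites. Active promoters and insulator sites bound by CTCF tend to be open in most cells of a population. Many enhancers are distal, open in some cells only, and grouped around the developmental genes they control. Embryonic stem cells treated with retinoic acid as embryoid bodies are known to turn to neural fates of the hindbrain and spinal cord.

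The label "embryonic stem cell" names the starting cells, and the RNA-seq libraries lacked much of that identity. Nanog and Pou5f1, factors of pluripotent cells, stood at 0.0879 ± 0.0318 and 0.815 ± 0.0792 FPKM (SD, n = 3), and Zfp42, another such marker, at 2.14 ± 0.542. The neuronal tubulin gene Tubb3 stood at 645 ± 8.48 FPKM and the motor neuron factor Mnx1 at 44.7 ± 1.53. Sparc, a basement membrane gene of extraembryonic endoderm among other cells, stood at 269 ± 35.6 FPKM. In such bulk samples, fewer cells with a region open and less opening per cell cannot be told apart, and the same holds for RNA. The labels do not say whether replicates came from separate cultures.

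The score chose the regions, so its values are description only. Their scores had a median of 31.3, with quartiles of 24.4 and 45.5. Of the regions, 15531 (46.2%) scored below 30, 11158 (33.2%) from 30 to below 50 and 6928 (20.6%) from 50 upwards. Both score bounds lay in a continuous distribution. The region just outside the lower bound scored 19.9991 and the one just inside 20.0046, and at the upper bound the scores were 99.9977 inside and 100.028 outside. Between scores of 19 and 20 there were 2267 regions below the width bound, and between 20 and 21 there were 2369. Another 425 regions of this score were left out because they were 3000 bp or wider.

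Intermediate regions were wider than weaker ones and narrower than strong ones. Their median width was 920 bp (quartiles 643 and 1265 bp). Weaker regions, those with a score below 20 and the same width bound, numbered 449912 and had a median of 323 bp. Strong regions are those with a score of at least 100. Below the width bound there were 7498 of them, with a median of 1626 bp. Among the intermediate regions, the median width was 763 bp for scores below 30, 936 bp from 30 to below 50 and 1229 bp above that. Spearman's rho between score and width was 0.364 across the regions, which share libraries and are not independent replicates. In all, the intermediate regions covered 34.4 Mb, or 14.4% of the bases in regions on chromosomes 1 to 19, although they were only 6.83% of the regions there.

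They were present on every autosome at similar density. The lowest density was 11.9 regions per Mb, on chromosome 14, and the highest 17.04 per Mb, on chromosome 11, measured over the span from the first to the last deposited region. Chromosome 11 also had the highest density of strong regions, at 4.91 per Mb, and chromosome 14 the lowest, at 2.42. As a share of all regions on a chromosome, intermediate regions ranged only from 6.36% on chromosome 5 to 7.33% on chromosome 3.

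Neighbouring intermediate regions usually lay more than 10 kb apart. The median gap, from the end of one to the start of the next, was 29.5 kb (95% interval 29.0 to 30.1 kb from order statistics, 33598 gaps). The quartiles were 10.3 and 74.9 kb, and the mean, pulled up by long gaps, was 70.7 kb. Gaps of at most 1 kb numbered 1239 (3.69%), gaps of at most 10 kb 8245 (24.5%), and gaps over 500 kb 557. No deposited regions overlapped, and the shortest gap between any regions was 151 bp.

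Measured against the mean gap of each class, intermediate regions had more short gaps than weaker ones. Each class's gaps were divided by the mean gap of that class, since classes of different size have different gaps. Of the gaps between intermediate regions, 19.1% were below 0.1 of their mean, against 13.6% for weaker regions and 20.4% for strong ones. The median gap was 0.418 of the mean for intermediate regions, 0.471 for weaker and 0.311 for strong regions. On both measures the intermediate class lay between the others. The coefficient of variation of the gaps, which weighs the longest gaps most, had another order, at 3.63 for weaker, 2.14 for intermediate and 2.08 for strong regions. So which class was spaced less evenly depends on the measure. The minimum gap of 151 bp bears more on the weaker class, whose mean gap was 4949 bp. It leaves a larger part of the range below 0.1 of the mean empty for that class. How much of the difference between 13.6% and 19.1% it accounts for was not tested.

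**Figure D1:**
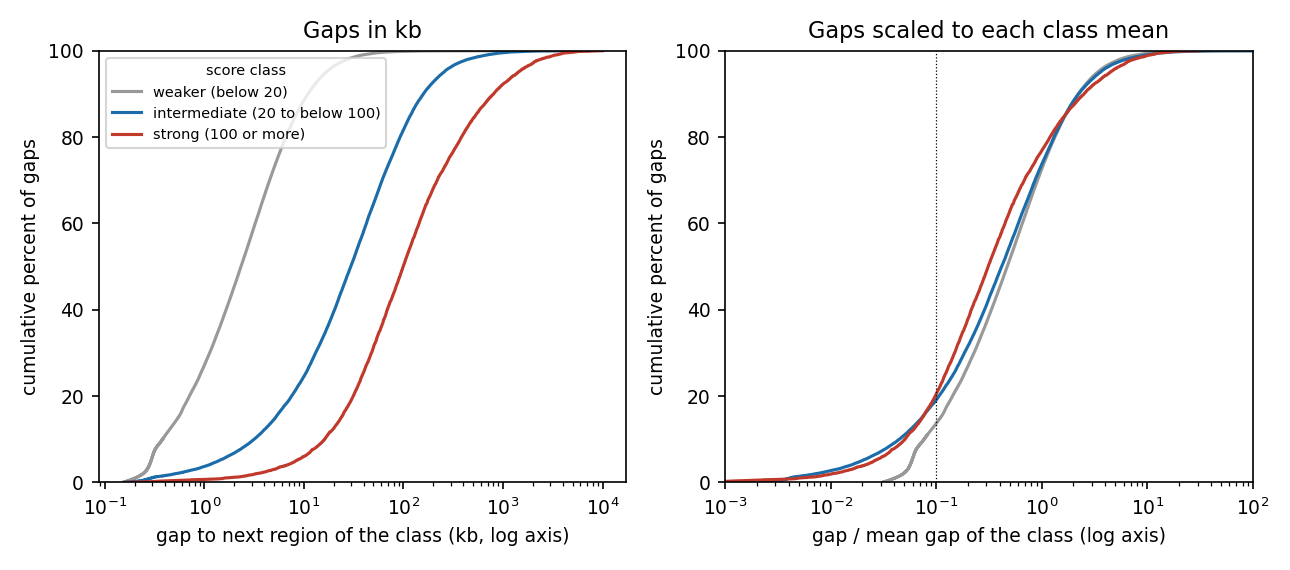
Cumulative percent of gaps between neighbouring regions of the same score class on chromosomes 1 to 19, in kb on a log axis (left) and divided by the mean gap of the class on a log axis (right). The dotted line marks 0.1 of the mean, below which lie 13.6% of weaker, 19.1% of intermediate and 20.4% of strong gaps.

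The 5 longest stretches without an intermediate region held from 0 to 4 strong regions each. The longest, chr7:39056831-46528654, spanned 7.47 Mb and held 48 regions, all of them weaker. On chromosome 16, chr16:81224486-84702883 spanned 3.48 Mb and held 236 weaker regions and no strong one. Chromosome 7 had 2 more of the 5 longest gaps. These were chr7:7249919-10590962 (3.34 Mb, 6 weaker and 1 strong region) and chr7:31994095-34919277 (2.93 Mb, 38 weaker and 1 strong region). The remaining one, chr2:97987392-101126066 (3.14 Mb), held 108 weaker and 4 strong regions. Of the 5 stretches, the one on chromosome 16 thus held the most regions and those on chromosome 7 the fewest. Chromosome 16 as a whole had 199 regions per Mb, so its stretch was also sparse for its length. How much of each stretch can be mapped with short reads was not tested.

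In the list of all regions, an intermediate region was next to another intermediate region more often than their share of the list. Of the 67228 neighbours of intermediate regions on either side, 10.5% were intermediate, against 6.83% of all regions. Strong regions made up 2.46% of these neighbours and 1.63% of the list. Most neighbours, 86.8%, were weaker regions, and 76.0% of intermediate regions had a weaker region on both sides. Strong regions had intermediate neighbours about as often as intermediate regions did, at 10.4%, and weaker regions less often, at 6.48%. The excess of intermediate neighbours was thus not particular to intermediate regions.

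Clusters were defined as chains of at least 3 intermediate regions with gaps of at most 10 kb. There were 1657, holding 5927 regions, or 17.6% of the class (95% Wilson interval 17.2 to 18.0%). Applied to all regions below the width bound, the same rule placed 10.7% in clusters. Its gap was then scaled to their mean gap and was 628 bp. With gaps scaled in this way to 0.700 and 45.2 kb, 11.5% of weaker and 23.0% of strong regions were in clusters. At the unscaled 10 kb these shares were 93.3% and 1.77%. The minimum gap of 151 bp takes up more of 628 bp or 0.700 kb than of 10 kb. How far it lowers the 10.7% and 11.5% was not tested. Most intermediate regions stood alone (19740, 58.7%) or in pairs (7950, 23.6%). Among the clusters, 1095 had 3 members, 351 had 4, 120 had 5, 86 had 6 to 9 and 5 had 10 or more. Clusters spanned a median of 13.6 kb and at most 71.4 kb, of which the intermediate regions themselves covered a median of 26.0%. Intervals given here cover counting error only, and regions along a chromosome are not independent.

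Clustered regions differed little in score or width from single ones and lay closer to strong regions. The median score was 32.8 in clusters and 30.8 for single regions, and the median widths were 943 and 906 bp. The median distance to the nearest strong region was 47.4 kb for clustered and 90.9 kb for single regions. Within 10 kb of a strong region lay 14.5% of clustered regions (860 of 5927; 13.6 to 15.4%), 12.3% of those in pairs and 10.2% of single ones (9.80 to 10.6%). In clusters of 10 or more the share was 38.3% (23 of 60; 27.1 to 51.0%), which rests on 5 clusters. Of the 1657 clusters, 379 (22.9%) came within 10 kb of a strong region and 116 had one inside their span. A cluster was counted by its nearest member, so this share cannot be set against the shares of regions.

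**Figure D2:**
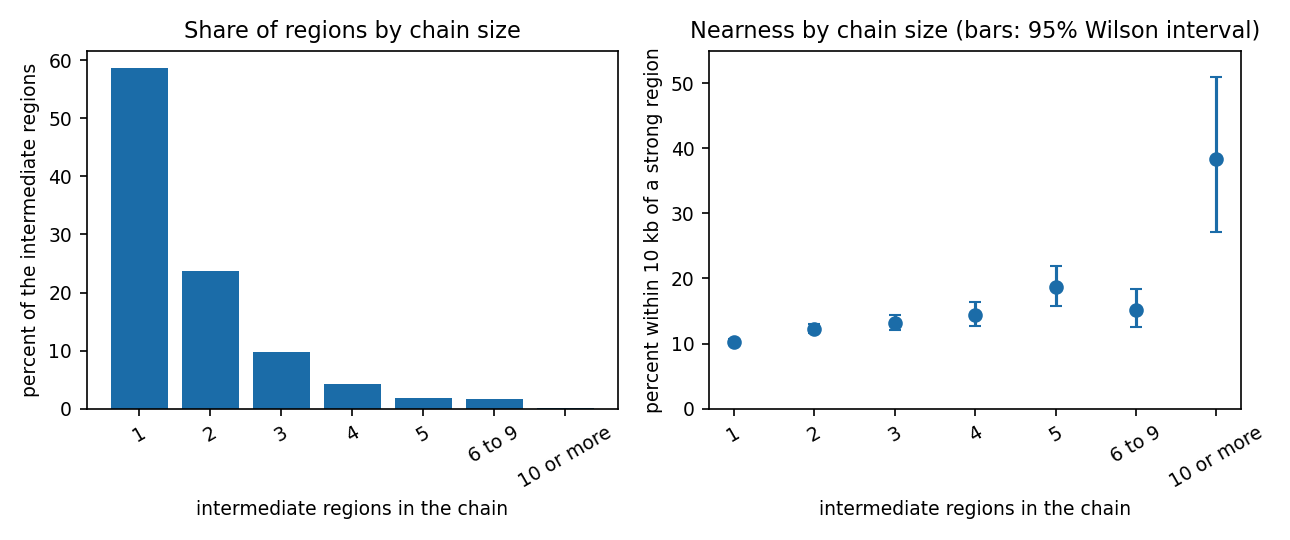
Left, percent of the 33617 intermediate regions found in chains of each size (gaps of at most 10 kb), where 58.7% stand alone. Right, percent of the regions in each chain size that lie within 10 kb of a strong region, with 95% Wilson intervals, from 10.2% for single regions to 38.3% in chains of 10 or more.

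The clusters with the most members were compact arrays of many openings, and their surroundings differed. The largest, chr8:19916920-19950902, held 16 intermediate regions in 33.98 kb. Their scores ran from 30.5 to 78.0 with a median of 45.8, and 1 strong region lay inside. Neighbours near its left end, chr8:19917895-19918854 (score 78.0) and chr8:19919104-19921039 (score 50.6), show the close packing. The next, chr1:85071594-85112536, held 13 in 40.9 kb with scores from 21.6 to 61.5, and its nearest strong region was 215 kb away. It was therefore large without any strong region near.

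Also on chromosome 1, chr1:87481339-87523028 held 11 intermediate regions with scores from 25.4 to 42.5 around 1 strong region. The remaining clusters of this size held 10 each. In chr6:70718583-70765078 the scores ran from 20.6 to 85.6 around 1 strong region. In chr17:25921119-25981659, which spanned 60.5 kb, they ran from 20.5 to 85.3 around 2. Of these 5 largest clusters, 4 thus held a strong region inside. Whether any of them lies in DNA present in several copies was not tested.

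With all widths pooled, intermediate regions lay closer to strong regions than weaker regions did. The median distance to the nearest of the 8002 strong regions of any width was 74.6 kb for intermediate regions (95% interval 73.1 to 76.1 kb) and 112 kb for weaker ones (112 to 113 kb). The quartiles for intermediate regions were 25.4 and 195 kb, and 1.96% (658) lay more than 1 Mb away. Within 10 kb of a strong region were 3855 intermediate regions, or 11.5% (11.1 to 11.8%), against 7.57% of all regions with a score below 100 and 7.28% of weaker ones. Both orders held on each of the 19 autosomes taken alone. The share within 10 kb ranged from 8.67% on chromosome 12 to 15.5% on chromosome 7 for intermediate regions. For weaker regions it ranged from 5.72% to 9.71% on the same chromosomes. No test is given, since all regions come from a single joint list and the score that defines the classes was measured in the same libraries.

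Nearness went up with score inside the class, continuing an order seen among weaker regions. The median distance was 125 kb for scores below 5, 103 kb from 5 to below 10 and 95.4 kb from 10 to below 20. It was 83.5 kb from 20 to below 30, 73.9 kb from 30 to below 50 and 58.3 kb from 50 to below 100. The share within 10 kb went from 10.8% (10.3 to 11.3%) through 11.2% (10.6 to 11.8%) to 13.4% (12.6 to 14.2%) across the 3 intermediate bands. The intervals of the lower 2 bands overlap, and that of the highest band lies above both. Within 1 kb, the shares of the 3 bands lay between 1.38% and 1.54%, and their intervals overlapped.

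**Figure D3:**
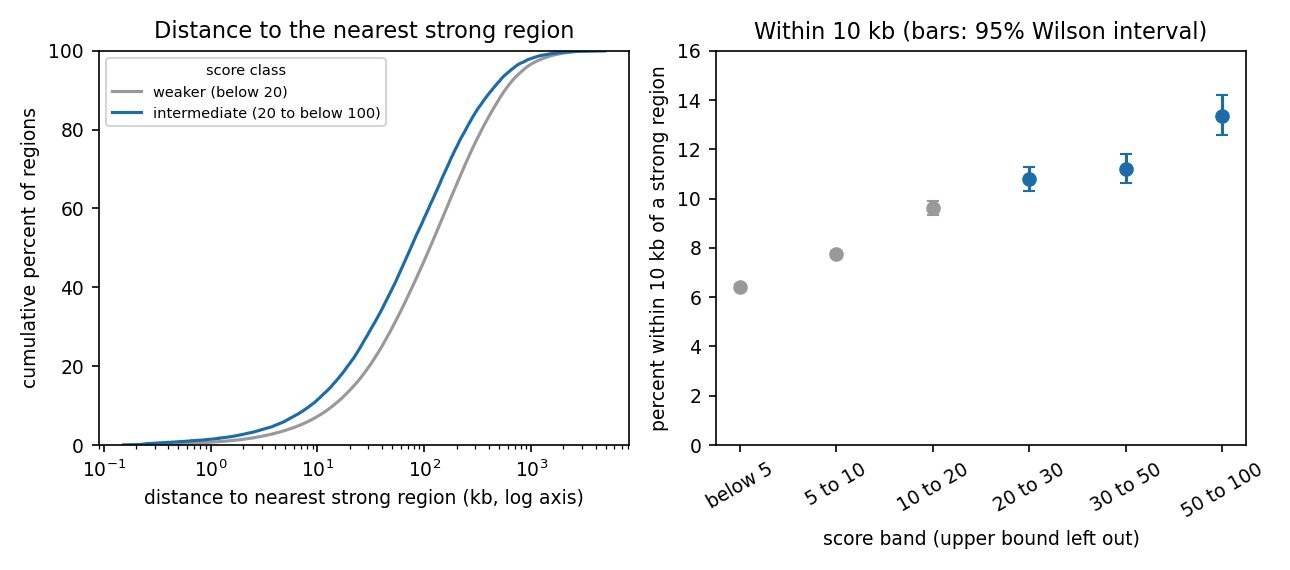
Left, cumulative percent of intermediate and weaker regions by distance to the nearest strong region, in kb on a log axis, with medians of 74.6 and 112 kb. Right, percent of regions within 10 kb of a strong region by score band, with 95% Wilson intervals, where grey points are weaker and blue points intermediate bands.

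Width moves with score, so the share within 10 kb was also taken at similar widths. Between 500 and 1000 bp it was 7.95% for weaker regions (7.78 to 8.11%), 10.6% for scores from 20 to below 30, 11.7% from 30 to below 50 and 15.6% from 50 upwards (14.2 to 17.2%). From 1500 to 3000 bp the order was less regular, at 7.78%, 9.61%, 8.83% and 11.6%. The difference in median distance did not hold at all widths. From 500 to 1000 bp the medians were 97.1 kb for weaker regions and 83.2, 73.3 and 51.8 kb for the 3 intermediate bands in order of score. From 1000 to 1500 bp weaker regions had a median of 85.8 kb, against 88.5 kb for scores from 20 to below 30, 73.0 kb from 30 to below 50 and 59.8 kb from 50 upwards. From 1500 to 3000 bp the medians were 79.4, 83.1, 77.7 and 64.1 kb. At these larger widths the lowest intermediate band was thus no closer to strong regions by its median than weaker regions were. The highest of these shares was that of narrow regions of high score, with a wide interval. Below 500 bp and with a score of 50 or more, 22 of 112 regions (19.6%, 13.3 to 28.0%) were within 10 kb.

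The density of intermediate regions was highest next to strong regions and dropped with distance. Within 1 kb of a strong region there were 31.1 per Mb, 2.22 times the mean of 14.0 per Mb outside strong regions. The ratio was 1.79 at 5 to 10 kb, 1.40 at 50 to 100 kb and 0.314 beyond 500 kb. Weaker regions followed another course, with a ratio of 1.10 within 1 kb, a maximum of 1.33 at 20 to 50 kb and 0.493 beyond 500 kb. Over 0 to 20 kb, as computed, the pooled weaker class showed no peak at the strong regions, while the intermediate class did. No region lay closer than 151 bp to another, yet the area within 1 kb counts these empty bases. This lowers the ratio within 1 kb for both classes. By how much was not tested, so these ratios cannot tell whether the weaker class has a peak there. The weaker score bands differed in their share within 1 kb. It was 0.516% for scores below 5, 0.831% from 5 to below 10 and 1.34% (1.24 to 1.45%) from 10 to below 20. For intermediate regions it was 1.47% (1.35 to 1.60%), and these 2 intervals overlap. Density by distance was not computed for each band, so whether the highest weaker band had a peak was not tested.

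**Figure D4:**
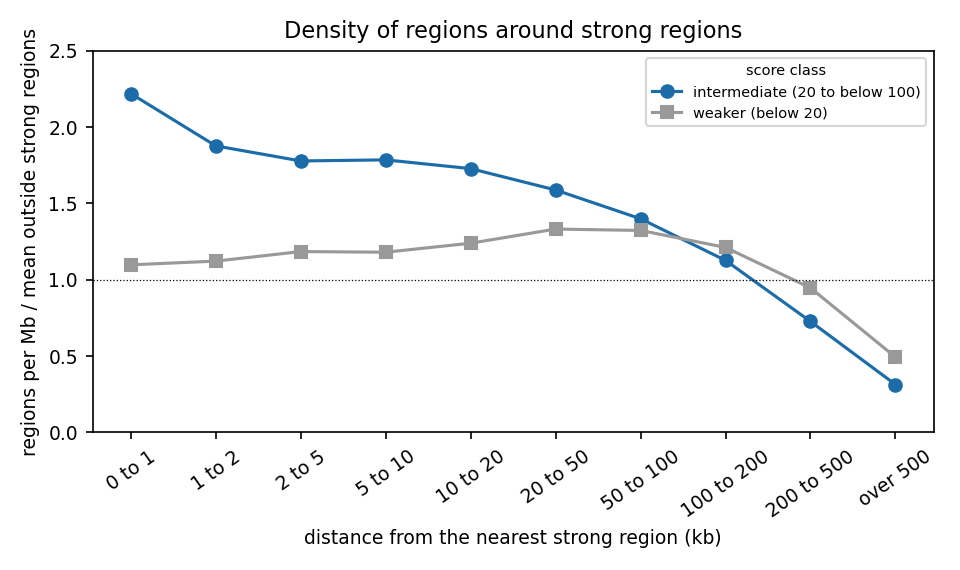
Number of intermediate and weaker regions per Mb by distance from the nearest strong region, in kb, divided by the mean of each class outside strong regions (dotted line at 1). Intermediate regions go from 2.22 within 1 kb to 0.314 beyond 500 kb, and weaker regions from 1.10 to 0.493 with a maximum of 1.33 at 20 to 50 kb. The area within 1 kb includes the bases closer than 151 bp to a strong region, where no region lay.

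Seen from the strong regions, 3042 of 8002 (38.0%, 37.0 to 39.1%) had an intermediate region within 10 kb. The share was 40.7% (39.4 to 42.1%) for strong regions with scores from 100 to below 200 and 33.5% (31.8 to 35.2%) from 200 to below 500. It was thus lower beside the stronger of these bands. For strong regions of 3000 bp or more it was 45.0% (227 of 504), and for narrower ones 37.5%. When each intermediate region was counted only for its nearest strong region, 752 strong regions had 2 or more within 10 kb, 174 had 3 or more, and the most was 8. Matching shares and counts around other positions were not computed, so these values alone do not show nearness.

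At the scale of 1 Mb, intermediate regions were concentrated where strong regions were many. The autosomes were divided into 2482 windows of 1 Mb, with a median of 13 intermediate regions (quartiles 5 and 20), and 148 windows held none. The 249 windows with the most intermediate regions held 23.9% of them, whereas the 249 with the most weaker regions held 18.2% of those. Windows without a strong region held a median of 3 intermediate and 72 weaker regions. Windows with 10 or more strong regions held a median of 26 and 252.5. Of the regions with a score below 100, the share that was intermediate went from 4.77% in the former windows to 9.76% in the latter. Intermediate regions were not restricted to windows with strong ones, since 3069 (9.13%) lay in windows without any. Spearman's rho over windows was 0.726 between intermediate and strong counts and 0.782 between intermediate and weaker counts. Windows share the libraries and differ in how much of them can be mapped, so these are descriptions.

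The windows that hold the HoxB and HoxC clusters were among the 5 with the most intermediate regions. Hox genes encode homeodomain factors that set position along the body axis and respond to retinoic acid. The windows of named genes were placed from general knowledge of mm9, not from an annotation, and no region is assigned to a gene. The HoxB window, chr11:96000001-97000000, and the HoxC window, chr15:102000001-103000000, held 48 intermediate regions each, and only 1 window held more. They held 9 and 15 strong regions, and 26 and 23 of their intermediate regions were in clusters. The other leading windows were chr7:52000001-53000000 with 49, chr6:72000001-73000000 with 48 and chr8:19000001-20000000 with 47. The last of these contains the largest cluster, and 40 of its 47 intermediate regions were in clusters, against 18 of 49 in the first.

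The HoxA and HoxD windows ranked lower. HoxA had 22 intermediate regions (rank 452 of 2482) and HoxD 18 (rank 752), with 6 and 1 strong regions. Beside these counts, the table lists 8 of 10 genes of the HoxB cluster and 8 of 11 of HoxA at 1 FPKM or more throughout the RNA-seq replicates. For HoxC this held for 5 of 9 genes, for HoxD for 4 of 9, and over all 24002 genes for 50.7%. The median level of the cluster's genes was 70.2 FPKM for HoxB, 13.03 for HoxA, 2.67 for HoxC and 0.923 for HoxD. The HoxB and HoxC windows, with equal counts of intermediate regions, thus differed widely in this median.

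The largest clusters in the HoxD and HoxB windows lay far from strong regions. In the HoxD window, chr2:74570225-74601722 held 7 intermediate regions in 31.5 kb, and the nearest strong region was 153 kb away. From left to right their scores were 29.7, 23.4, 20.7, 27.6, 49.8, 33.3 and 46.4, so the 3 highest were the 3 on the right. The widest, chr2:74572419-74575230, measured 2812 bp with a score of 23.4. In the HoxB window, chr11:96155499-96181603 held 5 intermediate regions with scores of 25.5, 35.2, 75.4, 28.5 and 46.0, at 218 kb or more from a strong region. The region with the score of 75.4 was chr11:96164396-96165575.

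In contrast, the largest cluster of the HoxA window, chr6:52158502-52172293, had 4 members and began 2.59 kb from a strong region. Its scores were 22.7, 39.96, 38.3 and 43.4. The largest cluster of the HoxC window, chr15:102566461-102592713, had 7 members with scores from 22.7 to 57.6 and began 13.3 kb from a strong region. The 4 Hox windows thus differed in how near their largest cluster was to a strong region. Over all intermediate regions of a window, the median distance was 42.4 kb for HoxA, 47.0 for HoxB, 23.5 for HoxC and 157 for HoxD. By this measure the HoxB window was close to that of HoxA and far from that of HoxD. None of the 4 clusters had a strong region inside.

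Among the windows of single factors, that of Olig2, a factor of motor neuron progenitors, held 30 intermediate regions (rank 139) and 9 strong ones, but none of the 30 was in a cluster. The window of Pax6, a factor of neural progenitors, held 23 (rank 385) and 5. That of Sox2, used by pluripotent and neural progenitor cells, held 14 (rank 1081) and no strong region, with a median distance of 633 kb to the nearest. Its gene stood at 79.5 ± 4.57 FPKM (SD, n = 3), above Olig2 at 33.5 ± 1.18 and Pax6 at 11.5 ± 0.562. Windows of genes that were low in these cells were not poor in intermediate regions. The Pou5f1 window held 39 (rank 22) with 16 strong regions and the Nanog window 28 (rank 179) with 8. A 1 Mb window holds many other genes, and which gene an accessible region acts on is not shown by these data.

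**Figure D5:**
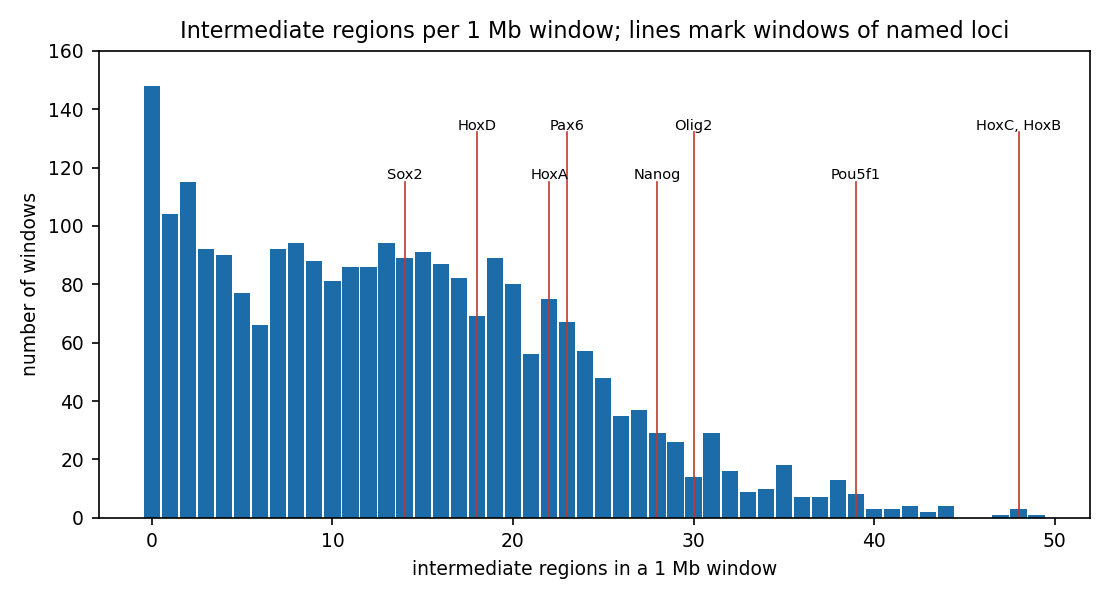
Number of 1 Mb windows on the autosomes (vertical axis) by the number of intermediate regions they hold (horizontal axis). Red lines mark the windows of named loci, from 14 regions for Sox2 to 48 for HoxB and HoxC, against a median of 13 over 2482 windows.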

How the data were processed

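The authors deposited a joint list of accessible regions for 3 ATAC-seq samples, with a score for each region on an unnamed scale, and RNA-seq values read as FPKM for 3 samples. Per the submitters' processing notes, Bowtie, Cufflinks and mm9 were used. For the region caller, its threshold, the Tn5 offset, pooling and read depth, nothing is stated in these sources. The unit FPKM is inferred from Cufflinks and the form of the deposited values.

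The score bounds, classes, gaps, clusters, distances and windows were computed with Python 3.11.15, numpy 2.4.6, pandas 2.3.3 and scipy 1.17.1. Distances run edge to edge on the same chromosome. Coordinates are mm9, 1-based. Functions for clusters and distances were tested on simulated regions with known answers. Shares carry Wilson and medians order-statistic 95% intervals. Nothing was tested between groups. Named regions are the 5 largest clusters, 5 longest gaps and 5 windows with the most regions, the 5 members farthest from a strong region, the members at the bounds and windows of fixed loci. The regions named from the Hox windows, and 2 inside the largest cluster, were chosen after their values were seen. The members and lists were chosen with earlier results of these data known. No mm9 annotation or sequence was used.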

Additional observations from a re-analysis of the deposited data

How the results depend on the processing

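The number of regions, their median gap, their share in clusters, their median distance to a strong region and the share within 10 kb of one were recomputed under 10 settings, which gave 26 values, of which 10 stayed within the counting interval (or within 1.5 times, for the number of regions) and 16 moved. A score minimum of 30 gave 18086 regions, a median gap of 53.7 kb, 8.69% in clusters, a median distance of 67.6 kb and 12.0% within 10 kb. The cause was not tested, and the regions it leaves out, with scores from 20 to below 30, had a median distance of 83.5 kb and 10.8% within 10 kb. Without the width bound 18.2% were in clusters. The cluster share was 7.46% with gaps of at most 5 kb, 36.7% with gaps of at most 20 kb and 3.68% for clusters of 5 or more. Distances between centres gave a median gap of 30.5 kb and 9.998% within 10 kb. With strong regions of score 200 or more, the median distance was 214 kb and 3.84% lay within 10 kb, and with strong regions below 3000 bp only, 82.9 kb and 10.6%. Within 50 kb lay 39.6%. Merging regions within 200 bp moved none of these values beyond those limits. Marker means without each RNA-seq replicate were computed, but with 3 replicates they cannot move by 1 SD, so they say nothing about stability. No paired analysis was possible because the regions have no value per sample and no groups were tested. Read depth is unknown, so how far it limits which regions passed a score of 20 cannot be given.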

Other observations

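The sex chromosomes, which the rule leaves out, had few regions and a larger share of intermediate ones. Chromosome X held 3131 regions, or 19.2 per Mb of its span, against 177 to 245 per Mb on the autosomes. Of these, 674 (21.5%) had the score and width of intermediate regions, against 6.83% on the autosomes, and 208 (6.64%) scored 100 or more, against 1.63%. Per Mb, intermediate regions were nevertheless sparser on X, at 4.13 against 11.9 to 17.04. The median score was 9.81 on X and 5.24 on the autosomes, while the lowest scores were alike, at 3.63 and 3.62. Chromosome Y held 52 regions, 17 of them of intermediate score and width.

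The 5 intermediate regions farthest from a strong region lay on chromosomes 5 and 15. The farthest, chr5:59284471-59285436, scored 36.6 at 4.89 Mb from a strong region. Near it were chr5:59208997-59209695 (score 23.8, 4.82 Mb) and chr5:59936798-59937360 (score 25.9, 4.42 Mb). On chromosome 15, chr15:20813941-20814446 (score 23.3, 4.32 Mb) and chr15:20766636-20767181 (score 23.7, 4.27 Mb) lay close to each other.

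Short gaps had a preferred length. Between intermediate regions, 180 gaps measured 250 to below 300 bp, against 112 from 200 to below 250 and 96 from 300 to below 350 bp. Weaker regions had a maximum in the same bin, with 16215 gaps. Scores also recurred at steps: the most common scores were 0.131 apart both over all regions and among intermediate ones, where 212 regions shared the score 20.1723.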
